A study of Mus musculus with 2 samples.

Results

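Mature microRNAs of 2 small families with known roles in lipid and insulin biology were followed in mouse liver after short-term ethanol feeding. These were mmu-miR-33-5p and mmu-miR-33-3p, the arms of 1 hairpin, and the close relatives mmu-miR-103-3p and mmu-miR-107-3p. They are defined by name, and all 4 were found among the 1915 microRNA names listed in the deposited tables. The livers came from wild-type female C57BL/6 mice, 8 to 10 weeks old. All mice first had 5 days on liquid Lieber-DeCarli control diet. The ethanol-fed mice then had 10 days of this diet with 5% (v/v) ethanol and were gavaged on day 16 with ethanol at 6 g/kg. The pair-fed mice were kept on control diet of matched calories and were gavaged with isocaloric dextrin-maltose. All livers were taken 9 h after the gavage. The labels list 1 sample per condition. The authors deposited 2 tables, here experiment 1 and experiment 2, and a table holds 1 library of either condition. How many animals stand behind a library is not given in the sources used here. With 1 library per condition in a table, no test could be made within an experiment, and every difference below is between libraries. Over both experiments there are 2 differences per microRNA, with which an exact two-sided paired permutation test cannot give a p below 0.5. Whether the experiments used separate animals is not given in the sources used here.

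A microRNA guides an Argonaute protein to messenger RNAs that pair with its seed, the bases near its 5′ end, and lowers the output of those messengers. miR-33 lies within *Srebf2*, the gene of SREBP2, which switches on cholesterol synthesis and uptake, and it is known for repressing the cholesterol exporter ABCA1 and enzymes of fatty acid oxidation. miR-103 and miR-107 lie within genes of pantothenate kinases, which catalyse the committed step of coenzyme A synthesis, and they are known for lowering insulin sensitivity in liver and adipose tissue, in part through caveolin-1. Messenger RNAs and proteins were not measured in these libraries.

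The mature sequences are shown because the comparisons turn on the seeds and on a single base near the 3′ end that separates miR-103-3p from miR-107-3p. They are from RefSeq (GRCm38.p6) and are written 5′ to 3′, with the seed (bases 2 to 8) in capitals.
mmu-miR-33-5p: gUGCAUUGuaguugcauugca
mmu-miR-33-3p: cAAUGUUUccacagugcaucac
mmu-miR-103-3p: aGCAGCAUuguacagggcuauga
mmu-miR-107-3p: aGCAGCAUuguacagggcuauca
miR-103-3p and miR-107-3p share the seed GCAGCAU and 22 of their 23 bases. The substitution from miR-103-3p to miR-107-3p is G22C, counted from the 5′ end, with 1 base after it. A read that stops before base 22 therefore fits both names, and how the authors assigned such reads is not given in the sources used here. The arms of miR-33 have different seeds, and whether they share messengers was not measured.

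In GRCm38, the Mir33 hairpin lies on the plus strand of chromosome 15 from 82198122 to 82198190. It is in intron 16 of 18 of the *Srebf2* transcript ENSMUST00000023100.7 (GENCODE vM21), and was intronic in each of the 3 annotated *Srebf2* transcripts that span it. miR-103-3p is made from 2 genes with the same mature sequence, so that its reads cannot be divided between them. Mir103-1 (chromosome 11, 35782396 to 35782481, plus strand) lies in intron 5 of 6 of *Pank3*, and Mir103-2 (chromosome 2, 131288052 to 131288137, plus strand) in intron 5 of 6 of *Pank2*. Mir107 (chromosome 19, 34820687 to 34820773, minus strand) lies in intron 5 of 6 of *Pank1*. Each of the 4 hairpins is on the strand of its host gene, inside an intron.

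Experiment 1 lists whole reads, 4170601 on microRNAs with pair-feeding and 4311802 with ethanol. Experiment 2 lists reads per 1000000 reads on microRNAs (RPM). Its low values rise in steps of 0.0925 and 0.0924 RPM, and if a step is 1 read the totals are 10812541 and 10820473 reads. Reads of experiment 2 below are therefore estimates. The lowest value above 0 there is 10 steps. The 5 hepatocyte microRNAs of the marker list were above 0 in every library, yet miR-122-5p, the most typical of them, made up 0.297% and 0.221% of the pair-fed and ethanol-fed reads in experiment 1, against 18.3% and 15.7% in experiment 2. Summed markers of other cell types differed between the conditions, apart from those of mesenchyme in experiment 1. The 4 red cell markers summed to 11559 RPM with pair-feeding and 33915 RPM with ethanol in experiment 1, nearly all of it miR-486a-5p, and to 1826 and 1152 RPM in experiment 2, where miR-451a led. The 5 white cell markers, led by miR-142a-5p, summed to 404 and 336 RPM and to 886 and 473 RPM, with miR-155-5p at 0 after pair-feeding in experiment 1. The 4 pancreas markers summed to 85.1 and 48.5 RPM, nearly all of it miR-375-3p, and to 5.92 and 113 RPM, where miR-217-5p was at 1.39 and 56.4 RPM and miR-216a-5p and miR-216b-5p were listed at 0 with pair-feeding. The 5 mesenchyme markers summed to 96550 and 96122 RPM in experiment 1 and to 19700 and 24782 RPM in experiment 2. miR-143-3p led both sums, with 96276 and 95735 RPM in experiment 1, so the sums hide the other markers. Marker by marker, 4 of the 5 were higher with ethanol in experiment 1 (median log2 ratio 0.62). In experiment 2, 2 were higher and 3 lower (median -0.0018). The 2 endothelium markers summed to 3854 and 5142 RPM and to 22335 and 26332 RPM. The part of these cell types in the results was not tested. In bulk tissue, fewer cells of a type and less of a microRNA per cell cannot be told apart.

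miR-103-3p was the most abundant of the 4 in every library, followed by miR-107-3p, and the miR-33 arms were far below. miR-103-3p was at 480 RPM (2001 reads) after pair-feeding and at 430 RPM (1853 reads) after ethanol in experiment 1, and at 2850 and 2483 RPM in experiment 2. miR-107-3p was at 377 RPM (1571 reads) and 397 RPM (1711 reads) in experiment 1, and at 606 and 592 RPM in experiment 2. The ethanol-fed library was the lower for miR-103-3p in both experiments and for miR-107-3p only in experiment 2. By reads in the pair-fed libraries, miR-103-3p held rank 50 in experiment 1 and rank 29 in experiment 2, and miR-107-3p ranks 53 and 62.

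miR-33-5p was at 4.56 RPM (19 reads) after pair-feeding and at 0.696 RPM (3 reads) after ethanol in experiment 1, and at 6.20 and 6.56 RPM in experiment 2. miR-33-3p had 0 and 5 reads in experiment 1, and 2.22 and 2.86 RPM in experiment 2. These levels were a small fraction of the signal of the 4 microRNAs, the miR-33 arms together giving between 0.224% and 0.529% of their reads. The order miR-103-3p, miR-107-3p, miR-33-5p, miR-33-3p held in 3 libraries. In the ethanol-fed library of experiment 1 the miR-33 arms were in the other order, with overlapping intervals (95% Poisson interval 0.143 to 2.03 RPM for miR-33-5p and 0.377 to 2.71 RPM for miR-33-3p). All intervals given here cover counting error only, since 1 library per condition in a table shows no spread between animals. PCR copies cannot be told from separate molecules, so the intervals may be too narrow even for counting error.

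**Figure D1:**
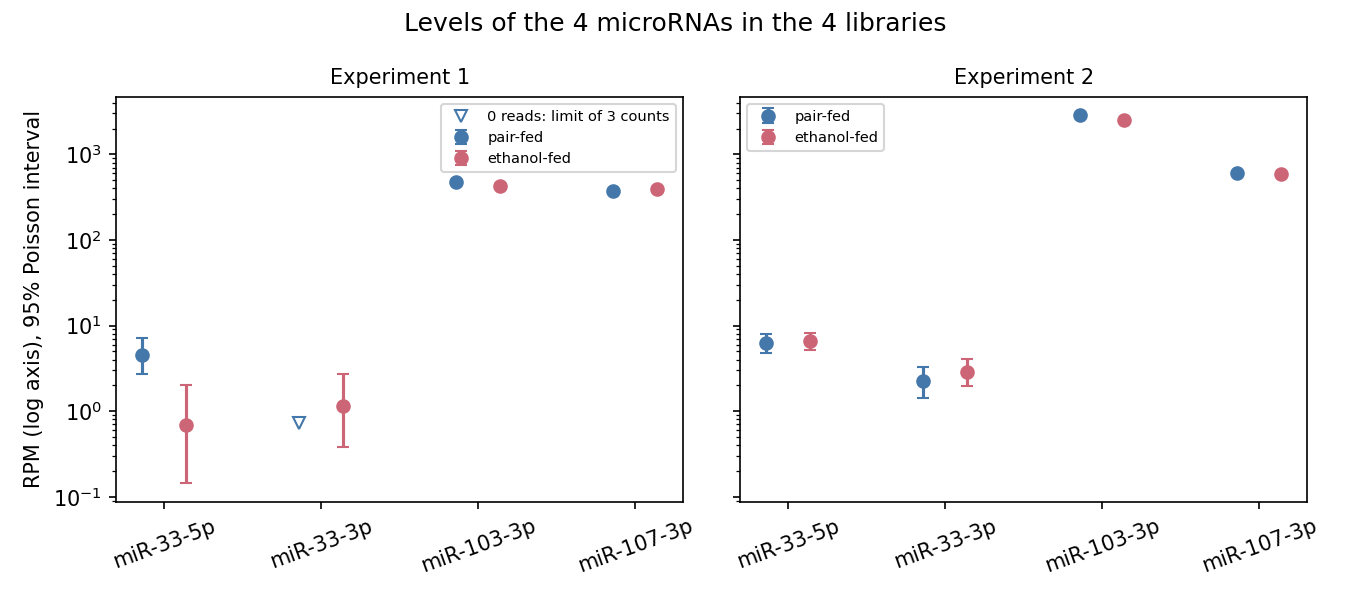
Level of each microRNA in RPM on a log axis, with 95% Poisson intervals, in the pair-fed (blue) and ethanol-fed (red) library of each experiment; the open triangle marks the limit of 3 counts for a library with 0 reads. miR-103-3p and miR-107-3p lie between 377 and 2850 RPM and the miR-33 arms at or below 6.56 RPM, and the widest gap between conditions is that of miR-33-5p in experiment 1.

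Ethanol-fed livers were compared with pair-fed livers in each experiment to ask how these microRNAs differ after short-term ethanol feeding. miR-103-3p was lower in the ethanol-fed library in both experiments, by a small and like amount. In experiment 1 its RPM after ethanol was 0.896 times that after pair-feeding (95% exact interval 0.840 to 0.955), and in experiment 2 the ratio was 0.871 (0.857 to 0.885). The log2 ratios, computed after adding 1 read per library, were -0.16 and -0.20, at percentiles 44.4 and 35.6 of all microRNAs tested, meaning those with 10 or more reads over both libraries of an experiment. The interval of each ratio lay below 1, but among the microRNAs with at least 1000 reads the median absolute log2 ratio was 0.23 in experiment 1 and 0.21 in experiment 2, so that differences of this size were common in these libraries. Over both experiments the mean log2 difference was -0.18 ± 0.028 (SD, n = 2 experiments; exact paired permutation p = 0.5, the smallest possible). In experiment 1, 55 of 82 such microRNAs differed more than miR-103-3p, and in experiment 2, 83 of 151 did.

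miR-107-3p stayed near its pair-fed level in both experiments. Its ratio was 1.05 (0.983 to 1.13) in experiment 1 and 0.977 (0.944 to 1.01) in experiment 2, and both intervals include 1. The log2 ratios were 0.075 and -0.034. If each read was counted under 1 name only, the reads of the 2 relatives together do not depend on how reads were divided. Whether that was so is not given in the sources used here. The sum went from 856 to 827 RPM in experiment 1 (ratio 0.965, 0.921 to 1.01). In experiment 2 it went from 3456 to 3075 RPM (ratio 0.890, 0.877 to 0.903). The lower summed level was thus beyond counting error in experiment 2 and within it in experiment 1.

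The balance between the relatives moved the same way in both experiments. A ratio within a library does not depend on the scaling between libraries, so the share of miR-107-3p in the reads of miR-103-3p plus miR-107-3p was taken for each library. In experiment 1 it was 44.0% in the pair-fed library (95% Wilson interval 42.4% to 45.6%) and 48.0% in the ethanol-fed library (46.4% to 49.6%), higher by 4.03 percentage points (1.71 to 6.33). In experiment 2 it was 17.5% (17.2% to 17.9%) and 19.3% (18.8% to 19.7%), higher by 1.72 points (1.15 to 2.30). The share was higher in the ethanol-fed library in 2 of 2 experiments, with intervals that do not overlap within an experiment. The mean difference was 2.87 ± 1.63 points (SD, n = 2 experiments; exact paired permutation p = 0.5, the smallest possible).

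For miR-103-3p and miR-107-3p, the experiments differed more from each other than the conditions did. miR-103-3p gave 1.27 reads (pair-fed) and 1.08 reads (ethanol-fed) for each read of miR-107-3p in experiment 1, and 4.70 and 4.19 in experiment 2. Between the pair-fed libraries, miR-103-3p was 5.94-fold higher in experiment 2 than in experiment 1, and miR-107-3p 1.61-fold higher. The libraries of the 2 experiments were counted and scaled in separate tables, and the cause of the gap was not tested.

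**Figure D2:**
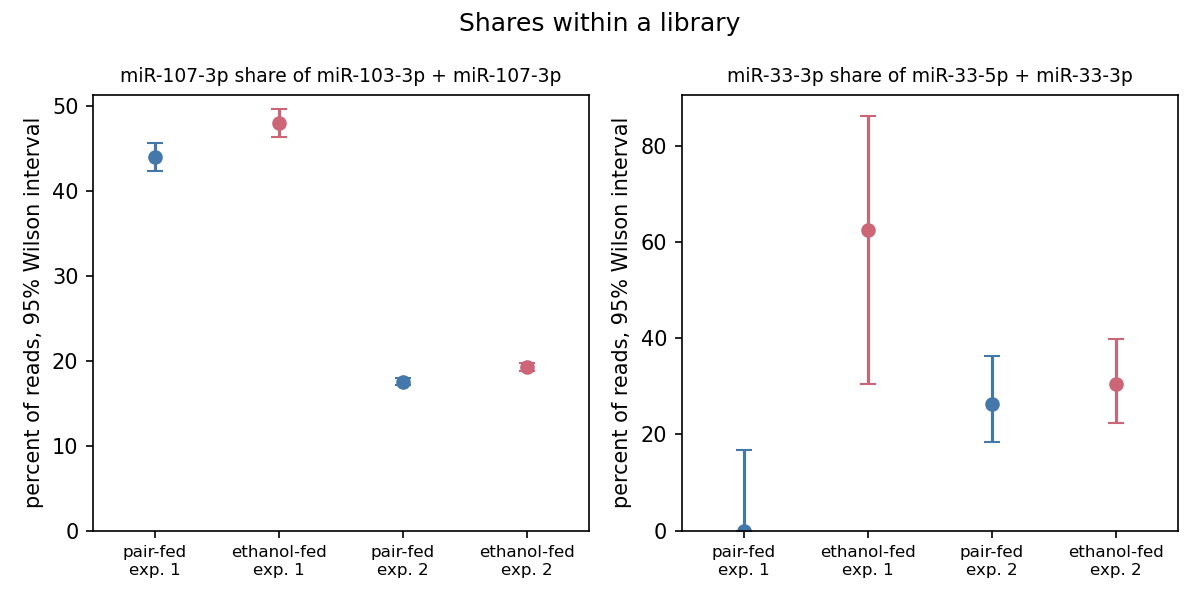
Share in percent, with 95% Wilson intervals, of miR-107-3p in the reads of miR-103-3p plus miR-107-3p (left) and of miR-33-3p in the reads of the miR-33 arms (right), in the pair-fed (blue) and ethanol-fed (red) library of each experiment. The left panel shows shares of 44.0% and 48.0% in experiment 1 and of 17.5% and 19.3% in experiment 2, and the right panel shows wide intervals in experiment 1, where the arms had 19 and 8 reads.

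The tables hold 11 other pairs of mature microRNAs of equal length that differ at 1 base and reach 100 reads in both experiments, such as let-7a-5p and let-7c-5p. This set was drawn up after the shares of miR-103-3p and miR-107-3p had been seen. Between the pair-fed libraries, the share of miR-107-3p was 26.4 points lower in experiment 2 than in experiment 1, beside a median absolute difference of 7.76 points over the 12 pairs. Only miR-100-5p and miR-99a-5p, with miR-99a-5p at 34.6% and 81.7% of the reads in the pair-fed libraries, differed more. Between conditions, the differences of 4.03 and 1.72 points stood beside medians of absolute differences of 0.86 and 0.55 points over the 12 pairs. Several pairs had shares near either end of the scale, where the same relative change gives fewer points, so these medians are not a like measure. With let-7a-5p, the share of let-7e-5p rose from 4.81% to 5.88% and from 1.35% to 1.86%, a larger relative change in both experiments. Some pairs differed more in points and in opposite directions, such as let-7a-5p and let-7c-5p (12.2 and -5.21 points) and miR-100-5p and miR-99a-5p (6.03 and -2.03 points). In all, 5 of the 12 pairs, miR-103-3p and miR-107-3p among them, moved the same way in both experiments. miR-103-3p and miR-107-3p are the pair with the fewest bases after the one that differs. Several pairs share a let-7 sequence and are not independent.

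**Figure D3:**
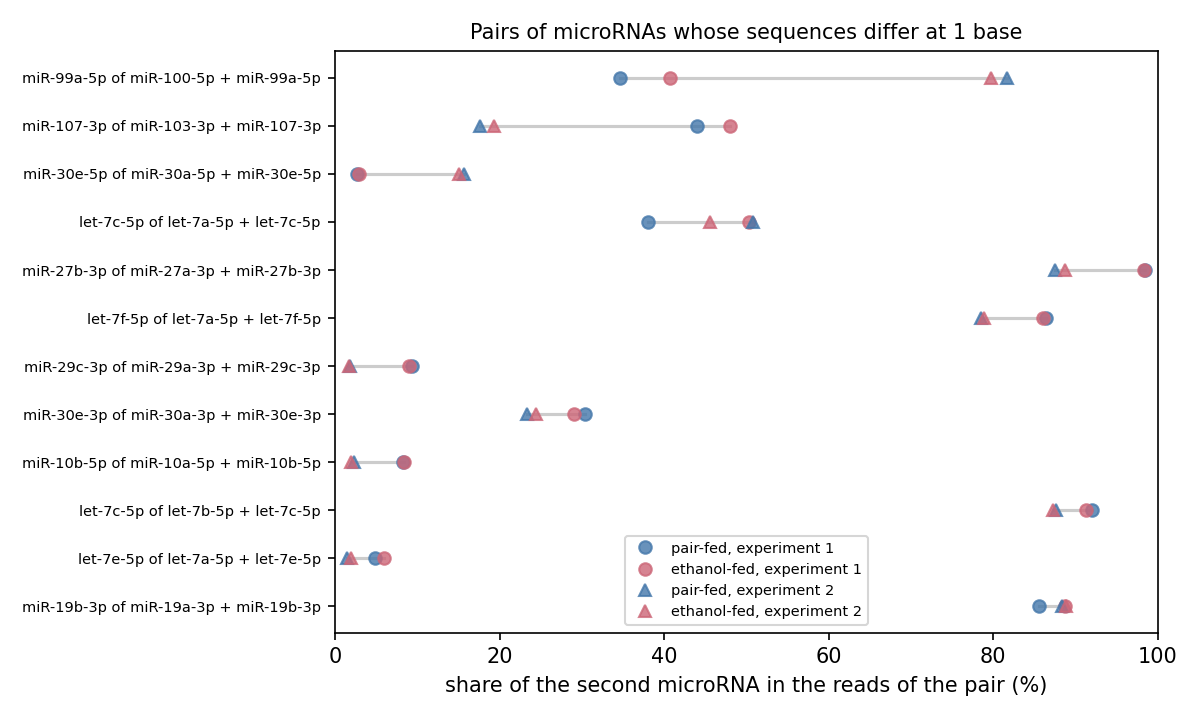
For each pair of microRNAs that differ at 1 base, the share in percent of the second microRNA in the reads of the pair, in the pair-fed (blue) and ethanol-fed (red) libraries of experiment 1 (circles) and experiment 2 (triangles). The rows are ordered by the difference between the pair-fed libraries, and miR-103-3p with miR-107-3p comes second with 26.4 points.

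miR-33-5p differed between the libraries of experiment 1 and not visibly between those of experiment 2. In experiment 1 its 19 pair-fed and 3 ethanol-fed reads gave a ratio of 0.153 (95% exact interval 0.0289 to 0.519), a level 6.55-fold lower with ethanol (1.93-fold to 34.5-fold). With 1 read added per library the log2 ratio was -2.37, a smaller difference. In experiment 2, where the estimated reads were 67 and 71, the ratio was 1.06 (0.748 to 1.5) and the log2 ratio 0.081. The intervals of the 2 experiments do not overlap, and the mean log2 difference over both was -1.14 ± 1.73 (SD, n = 2 experiments; exact paired permutation p = 1).

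Of the 3 members with at least 10 reads in experiment 1, 1 was at least 2-fold lower in the ethanol-fed library and none was 2-fold higher, while 12.9% of all 302 microRNAs tested were at least 2-fold lower and 25.5% differed 2-fold in either direction. Such differences were more common where reads were few. Of the microRNAs with 10 to 49 reads in experiment 1, a class set after the values had been seen, 24.3% (26 microRNAs) were at least 2-fold lower, 44.9% differed 2-fold in either direction, and 7, miR-33-5p included, had a log2 ratio of -2.37 or less. In experiment 2, 0 of 4 members differed 2-fold, against 25.8% of the 469 microRNAs tested. A single member in 3, and none in 4, is too few to set apart from these shares.

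miR-33-3p, the opposite arm of the same hairpin, did not follow miR-33-5p in experiment 1. It had 0 reads in the pair-fed library, which allows up to 0.719 RPM, and 5 reads (1.16 RPM) in the ethanol-fed library. The exact interval of the ratio starts at 0.886 and so includes 1. With 5 reads in all it was not among the microRNAs tested. In experiment 2 it had an estimated 24 and 31 reads, a ratio of 1.29 (0.733 to 2.30) and a log2 ratio of 0.36. Its interval includes 1, and a difference was not detectable at this depth. The reads of both arms together were 19 and 8 in experiment 1, with a ratio of 0.407 (0.154 to 0.974), and an estimated 91 and 102 in experiment 2, with a ratio of 1.12 (0.836 to 1.5).

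The arm balance was well measured only in experiment 2. There, miR-33-3p made up 26.4% of the reads of the arms in the pair-fed library (18.4% to 36.3%) and 30.4% in the ethanol-fed library (22.3% to 39.9%), a difference of 4.02 points whose interval runs from -8.74 to 16.4. miR-33-5p was the more abundant arm in both. In experiment 1 the share was 0% of 19 reads (0% to 16.8%) and 62.5% of 8 reads (30.6% to 86.3%), higher in the ethanol-fed library by 62.5 points (26.4 to 86.3). Each value of experiment 1 rests on fewer than 20 reads in a library.

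The 5p arms of miR-103 and miR-107 were close to absent. In experiment 1 miR-107-5p had 3 reads after pair-feeding and 0 after ethanol, and miR-103-2-5p had 0 and 1. All 3 names of these arms were listed at 0 in both libraries of experiment 2, where values below 10 reads do not appear, and miR-103-1-5p has no entry in the table of experiment 1. No ratio is given for them. The 3p arm thus made up nearly all reads of these hairpins in every library, unlike miR-33, whose arms were within 3-fold of each other in experiment 2.

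**Figure D4:**
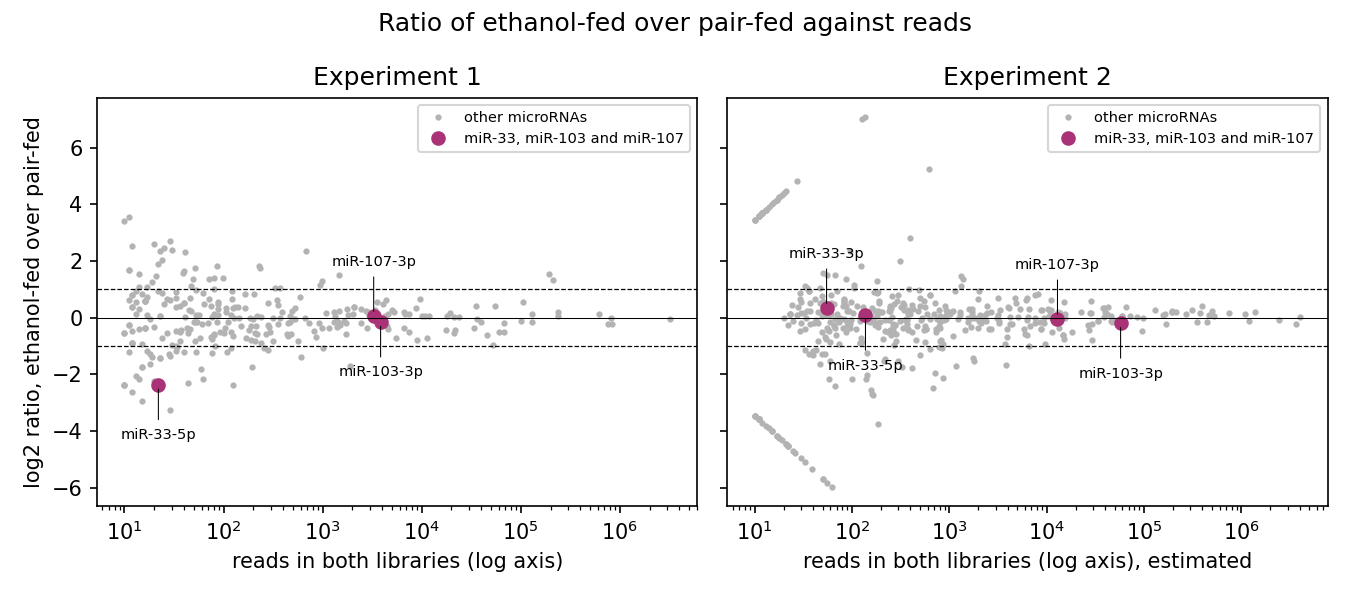
Log2 ratio of RPM, ethanol against pair-feeding, over the summed reads of both libraries on a log axis, for all microRNAs tested (grey) and for miR-33, miR-103 and miR-107 (purple); dashed lines mark 2-fold, and the straight runs of points in experiment 2 are microRNAs listed at 0 in 1 library. miR-103-3p and miR-107-3p lie close to 0 in both panels, and miR-33-5p lies at -2.37 in experiment 1 with 22 reads and at 0.081 in experiment 2 with 138.

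Other microRNAs share part of the seed of miR-103-3p and miR-107-3p. Among the 1623 names with a RefSeq mature sequence no other name shared bases 2 to 8, but 12 hold the core GCAGCA (bases 2 to 7) within their own first 8 bases. The 6 of them with at least 10 reads were miR-15a-5p, miR-15b-5p, miR-16-5p, miR-195a-5p, miR-322-5p and miR-497a-5p, of the miR-15 and miR-16 family known for restraining the cell cycle, in which the core is shifted by 1 base. All 6 had a log2 ratio above 0 in experiment 1 (median 0.20, range 0.035 to 1.05) and below 0 in experiment 2 (median -0.40, range -0.83 to -0.047), beside medians over all microRNAs of -0.013 and 0.0026. miR-103-3p was below 0 in both experiments (-0.16 and -0.20) and miR-107-3p at 0.075 and -0.034. miR-16-5p, the most abundant, went from 1385 to 1427 RPM in experiment 1 and from 1437 to 1063 RPM in experiment 2. Over all microRNAs tested, 147 of 302 were above 0 in experiment 1 and 233 of 469 below 0 in experiment 2. Only 1 of the 6 in experiment 1, miR-15b-5p, differed 2-fold, beside 25.5% of the 302 microRNAs tested there.

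**Figure D5:**
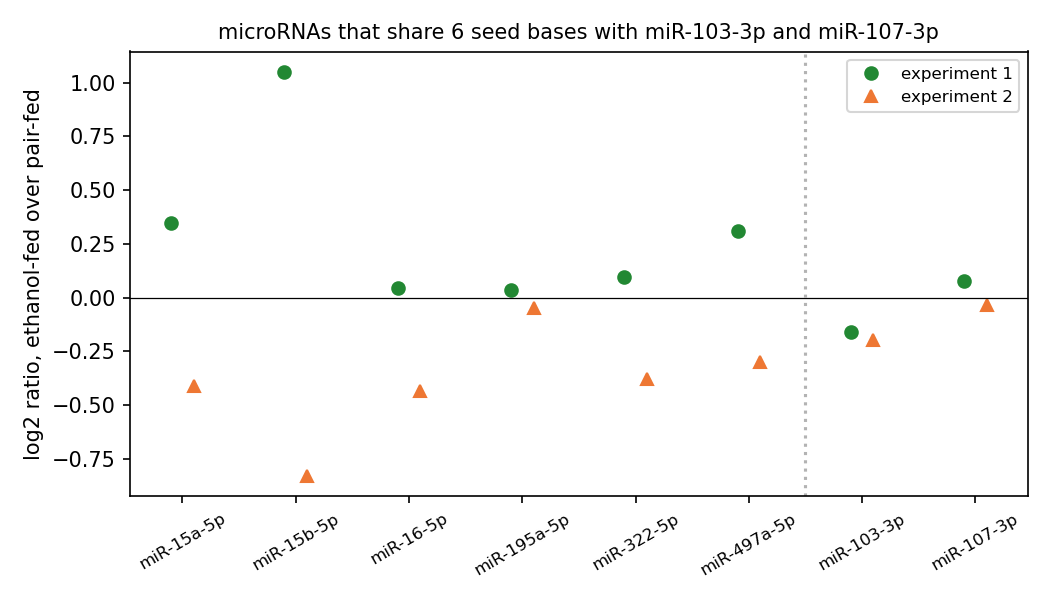
Log2 ratio of RPM, ethanol against pair-feeding, in experiment 1 (green circles) and experiment 2 (orange triangles) for the 6 microRNAs of the miR-15 and miR-16 family that hold the seed core GCAGCA and, right of the dotted line, for miR-103-3p and miR-107-3p. The 6 lie above 0 in experiment 1 and below 0 in experiment 2, whereas miR-103-3p lies below 0 in both.

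For miR-33, 1 measured microRNA held the core of each seed. miR-20a-3p, with the core UGCAUU of miR-33-5p, had 5 and 8 reads in experiment 1 and was listed at 0 in experiment 2. miR-409-3p, with the core AAUGUU of miR-33-3p, had 26 and 72 reads in experiment 1 (log2 ratio 1.39) and an estimated 116 and 25 in experiment 2 (-2.17). These share letters of the seed with miR-33, and whether they share targets was not measured.

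The microRNAs most like each member over the 4 libraries were found by the root mean square difference of log2 RPM, each centred over the libraries, among the 148 microRNAs that reach 100 reads in both experiments. Nearest to miR-103-3p was miR-140-3p, with a difference of 0.032 where the median was 1.14, at 216 and 192 RPM in experiment 1 and 1343 and 1114 RPM in experiment 2. Then came miR-101b-3p (0.11) and miR-30e-5p (0.19). Nearest to miR-107-3p were miR-215-5p (0.10), miR-320-3p (0.12) and let-7i-5p (0.14), where the median was 0.83. The relatives were not near each other, with a difference of 0.96, at rank 59 from miR-103-3p and rank 82 from miR-107-3p, a measure that includes the gap between the experiments.

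For the miR-33 arms likeness rests on few reads. The nearest to miR-33-5p were miR-425-5p (0.48), miR-872-5p (0.56) and miR-322-3p (0.67), where the median was 1.27, and each of these was lower in the ethanol-fed library of experiment 1, with log2 ratios of -1.16, -0.81 and -0.72. The nearest to miR-33-3p were miR-144-3p (0.40), miR-340-5p (0.74) and miR-451a (0.78), where the median was 1.37. miR-144-3p and miR-451a are red cell microRNAs, with log2 ratios of 1.81 and 2.36 in experiment 1, where miR-33-3p went from 0 to 5 reads, and of -0.32 and -0.77 in experiment 2, where that of miR-33-3p was 0.36.

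MicroRNAs with textbook roles in the same pathways were taken as lists, described without a test. Their counts stand beside the 25.5% of 302 microRNAs in experiment 1 and 25.8% of 469 in experiment 2 that differed 2-fold in either direction. These shares are smaller among microRNAs with more reads. Of the 158 with at least 100 reads in experiment 1, 10 were 2-fold higher and 9 lower. Of the 298 in experiment 2, 12 were higher and 24 lower. Of 17 that act on cholesterol export, lipoprotein uptake or lipoprotein assembly, 13 were tested in experiment 1 and 14 in experiment 2. In experiment 1, 2 were at least 2-fold higher, miR-144-3p, which is also on the red cell list (median 1.68), and miR-145a-5p, which is also on the mesenchyme list (median 0.62), and none was 2-fold lower (median -0.11). In experiment 2, 1 was at least 2-fold lower, miR-96-5p, and none 2-fold higher (median 0.0028). The most abundant, miR-148a-3p, which targets the LDL receptor, went from 70319 to 76712 RPM and from 185558 to 187898 RPM. The highest ratios were those of miR-144-3p, at 11.7 and 41.7 RPM in experiment 1, and miR-27b-3p, at 13122 and 16034 RPM in experiment 2. miR-96-5p had the lowest ratio in both, at 10.8 and 6.73 RPM and at 14.8 and 5.27 RPM.

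Of 13 microRNAs linked to fatty acid synthesis and oxidation, 9 were tested in experiment 1, where 2 were at least 2-fold lower, beside 12.9% of all microRNAs, and none 2-fold higher (median -0.37, or -0.12 over those with 100 reads or more), and 13 in experiment 2, where 1 was higher and 1 lower (median 0.094). For comparison, 25.8% of all 469 microRNAs tested in experiment 2 differed 2-fold in either direction. miR-21a-5p was the most abundant in experiment 1, at 14828 and 16038 RPM, and miR-122-5p in experiment 2, at 182938 and 156660 RPM. miR-29a-3p had the highest ratio in experiment 1 (336 to 491 RPM), and the 2 at least 2-fold lower were miR-132-3p (23 to 10 reads) and miR-378a-5p (23 to 11 reads). In experiment 2 miR-217-5p, which is also on the pancreas list, had the highest ratio (1.39 to 56.4 RPM), and miR-34a-5p, a repressor of *Sirt1*, the lowest (119 to 44.5 RPM).

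All 20 microRNAs of insulin and glucose biology were tested in both experiments. In experiment 1, 0 differed 2-fold (median 0.13), beside 25.5% of all 302 microRNAs tested. In experiment 2, 1 was at least 2-fold higher and 1 lower (median 0.16), beside 25.8% of 469 that differed 2-fold in either direction. Most of the list had 100 reads or more, a depth at which 2-fold differences were less common over all microRNAs. At that depth, 10 of 158 were higher and 9 lower in experiment 1, and 12 and 24 of 298 in experiment 2. let-7f-5p was the most abundant, at 105065 and 89956 RPM in experiment 1 and 60425 and 68880 RPM in experiment 2. let-7b-5p had the highest ratio in experiment 1 (878 to 1403 RPM) and miR-375-3p, an islet microRNA that is also on the pancreas list, the lowest (85.1 to 47.5 RPM). In experiment 2 miR-375-3p had the highest ratio (4.53 to 32.4 RPM) and miR-34a-5p the lowest, and these were the 2 that differed 2-fold. miR-103-3p and miR-107-3p, with log2 ratios between -0.20 and 0.075, lay within the 25th to 75th percentile of all microRNAs in both experiments (-0.55 to 0.48 and -0.42 to 0.38).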

How the data were processed

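Small RNA of 18 to 40 nt from total liver RNA was size-selected by gel, amplified by RT-PCR and sequenced on an Illumina HiSeq instrument. The labels name a TruSeq RNA kit, list the build mm8 and give 10 days of ethanol in the protocol and 16 days in the design statement; the aligner, the counter and the microRNA annotation are not given in the sources used here. The authors deposited counts of reads per mature microRNA for experiment 1, without normalization, and RPM for experiment 2, per 1000000 reads on microRNAs. The authors' log2 fold changes and p-values in the second table were not used. Columns were matched to conditions by their names, and 0 were left over.

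In experiment 2, 97.0% of 296 pair-fed and 96.6% of 291 ethanol-fed values under 60 RPM were whole multiples of the step, within 0.006 RPM. A value divided by the step and rounded was taken as reads. Log2 ratios were computed with a pseudocount of 1 read, which understates changes of rare microRNAs, for microRNAs that reach 10 reads over both libraries of a table. Ratio intervals are exact conditional binomial intervals, level intervals Poisson, and share intervals Wilson, with the Newcombe form for differences of shares, all at 95%. Differences over both experiments were tested by an exact two-sided permutation test with the experiments as 2 pairs, as the tables were scaled separately. A count of 0 was given an upper limit of 3 reads. Ranks and 2-fold counts are over the whole table. The functions were tested on simulated data.

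The members and lists were chosen with earlier results of these data known. The microRNAs named by rule were the members, other arms of their hairpins, seed relatives, the 3 nearest in pattern, and of each pathway list the most abundant and the largest rise and fall and of each marker list the most abundant. Over all microRNAs, miR-192-5p led experiment 1 (388161 RPM pair-fed) and miR-148a-3p experiment 2. The mesenchyme list had medians of 0.62 and -0.0018, while its most abundant member, miR-143-3p, had log2 ratios of -0.0081 and 0.40. The miR-126a arms led the endothelium list (medians 0.34 and 0.20). Of the 1915 names, 1623 (84.8%) matched a RefSeq mature sequence. Coordinates are from GRCm38 and were not compared with mm8, as the tables hold none. Alternatives were median-of-ratios scaling, totals without the most abundant microRNA or the red cell list, unscaled reads, a pseudocount of 0.1, other minimums, zeros at the lowest listed value and all hairpin arms. Tables were handled with pandas 2.3.3 and numpy 2.4.6 under Python 3.11.15, intervals came from scipy 1.17.1, and plots from matplotlib 3.10.9.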

Additional observations from a re-analysis of the deposited data

Results flagged for a closer look

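miR-33-5p and miR-107-3p had log2 ratios of opposite sign in the experiments, and the difference was not tested. For miR-33-5p the values were -2.37 in experiment 1, from 22 reads, and 0.081 in experiment 2, and the counting intervals of the log2 ratio (-5.11 to -0.95 and -0.42 to 0.59) do not overlap. For miR-107-3p they were 0.075 and -0.034, and both intervals include 0 (-0.025 to 0.17 and -0.083 to 0.016).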

How the results depend on the processing

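The 7 log2 ratios of the members were recomputed under 5 alternatives each, and of these 35 values 0 changed sign and 0 left the counting interval. No member was at 0 in experiment 2, so setting zeros to the lowest listed value could not change its ratios there. miR-33-5p in experiment 1 ranged from -2.67 to -2.30, miR-103-3p from -0.19 to -0.093 in experiment 1 and from -0.21 to -0.19 in experiment 2. The shares of miR-107-3p stayed within their intervals when all hairpin arms were counted, and the shares of miR-33-3p were not touched by the reading of zeros in experiment 2. Counting the arms could hardly move the shares of miR-107-3p. The 5p arms had at most 3 reads in a library of experiment 1 and were listed at 0 in experiment 2. The scalings shifted the median log2 ratio of all microRNAs by at most 0.066. The 2-fold counts over all microRNAs depended on the minimum of reads. In experiment 1, 38 were higher and 39 lower, against 99 and 102 with no minimum and 10 and 9 with at least 100 reads. In experiment 2, 50 were higher and 71 lower, against 12 and 24 with at least 100 reads, and 22 were higher with zeros at the lowest listed value, beside 49 lower. Of the calls in experiment 2, 41.3% were higher ones, against 33.3% and 31.0% under these settings, where fewer microRNAs or fewer zeros enter. Of 36 list medians under alternatives, 1 moved beyond the median counting interval of its members, that of the hepatocyte list in experiment 2, which went from 0.018 to 0.0057 with median-of-ratios scaling, and 1 changed sign, that of the cholesterol and lipoprotein list in experiment 2, from 0.0028 to -0.0096 with the same scaling. A replicate block by experiment was chosen after seeing the data. It cannot alter a mean of paired differences, which stayed at -1.14 for miR-33-5p, -0.18 for miR-103-3p and 0.021 for miR-107-3p on the log2 scale. For the share of miR-107-3p the mean stayed at 2.87 points. No call could change, since 2 pairs cannot give a p below 0.5. Depth limits the miR-33 arms in experiment 1, where 0 reads allow up to 0.719 RPM at a limit of 3 counts, and values below 10 reads in experiment 2.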
